A study of Mus musculus with 8 samples.

Results

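The genes described are 10 of the 34478 genes listed in an RNA-seq table of murine pancreatic ductal adenocarcinoma (PDAC) cells. They are the RIG-I-like receptors Ddx58 (RIG-I), Ifih1 (MDA5) and Dhx58 (LGP2), the endosomal receptor Tlr3, the adaptors Mavs, Ticam1 (TRIF) and Traf3, the kinases Tbk1 and Ikbke (IKKε), and the ubiquitin ligase Trim25. They were picked by their known function and with their measured trametinib response in view: Dhx58 was known to be lower with trametinib, and Ddx58 and Ifih1 higher. Their values under this comparison are therefore given as a description. No p-value is printed for them, and where a fit over all genes called one of them, that call is part of the description and not evidence. The cells were 4 primary lines, #1, #3, #5 and #10, grown from pancreatic tumors of mice that carried the alleles Ptf1awt/Cre and Trp53loxP/loxP. In these mice Cre recombinase, expressed from the pancreatic gene Ptf1a, deletes Trp53, so all libraries of both groups come from cells with these alleles. Each line was given trametinib, a MEK inhibitor, for 48 h at the IC50 of that line, or the solvent DMSO, and 1 polyA RNA library was made per line and treatment. Drug concentration thus differed between lines, and the lines, not repeated cultures of a line, are the replicates (n = 4).

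RIG-I-like receptors are cytosolic helicases that bind double-stranded RNA, RIG-I mainly short molecules with triphosphate ends and MDA5 long ones. Both carry CARD domains that engage MAVS on mitochondria, whereas LGP2 lacks CARDs, does not signal on its own and tunes the other receptors. TLR3 senses double-stranded RNA in endosomes and signals through TRIF. Both routes pass through TRAF3 to the kinases TBK1 and IKKε, which phosphorylate IRF3 and IRF7 and thereby switch on type I interferon and early interferon-stimulated genes. TRIM25 attaches ubiquitin chains to RIG-I that promote its binding to MAVS. Several of these genes are themselves interferon-inducible, and epithelial cells, the origin of PDAC, carry the whole route.

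Promoter sequences from RefSeq on GRCm38.p6 were matched by symbol for 9 of the 10 genes, all but Dhx58, each from 250 bases before to 50 bases after the transcription start. The interferon-stimulated response element (ISRE) core, GAAANNGAAA on either strand, stood in the windows of Ddx58 and Ifih1 and not in those of the other 7 genes matched, and it occurs in 3.44% of all 32851 windows. The pattern TGANTCA, searched for AP-1 with any base allowed in the middle, was present in 7.81% of windows. It was found in Ikbke as TGAATCA, and the label AP-1 stands for this loose pattern only. The ETS motif CCGGAAG, present in 8.86%, was found in Ifih1, Tbk1 and Ticam1. The NF-κB motif, present in 8.46%, was found in Tlr3 and Traf3, and the GAS motif TTCNNNGAA, present in 8.30%, in none. The RefSeq start used for Tlr3 lies inside the gene as placed by the GENCODE annotation (45395665 to 45411080 on chromosome 8). The Tlr3 window and its match are therefore within that gene and not before its GENCODE start. The ISRE match of Ddx58 covers bases 3 to 12 after the start (1 being the first transcribed base) and lies on the reverse strand, and that of Ifih1 covers bases 33 to 42. A match describes these letters and does not show that a factor binds. A match is printed for each gene that was called higher, to show where the motif lies, in the direction of transcription with the matched motif in capitals. The matches of Tbk1 and Traf3, which were not called, and the ETS match of Ifih1 are not printed. The choice of what is printed thus says nothing about motifs and change.
Ddx58 (ISRE core), chr4:40239796-40239925, minus strand: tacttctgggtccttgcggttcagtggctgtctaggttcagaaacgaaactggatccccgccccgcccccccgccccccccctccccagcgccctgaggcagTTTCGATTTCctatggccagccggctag
Ifih1 (ISRE core), chr2:62646206-62646235, minus strand: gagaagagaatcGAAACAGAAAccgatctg
Tlr3 (NF-κB), chr8:45410481-45410610, minus strand: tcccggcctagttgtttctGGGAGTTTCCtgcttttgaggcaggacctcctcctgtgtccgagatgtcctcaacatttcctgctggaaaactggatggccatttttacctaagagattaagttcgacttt
Ticam1 (ETS), chr17:56276738-56276867, minus strand: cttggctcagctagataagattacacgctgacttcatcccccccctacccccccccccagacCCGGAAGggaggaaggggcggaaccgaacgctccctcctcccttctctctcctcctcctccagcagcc
Ikbke (AP-1), chr1:131279534-131279663, minus strand: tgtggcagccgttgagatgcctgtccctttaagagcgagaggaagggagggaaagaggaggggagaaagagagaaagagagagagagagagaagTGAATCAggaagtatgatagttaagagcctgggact

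The values are the authors' normalized counts per gene, already scaled between libraries, and the libraries summed to between 30680091 and 36385719. Depth, estimated from the step between low values, was about 29300000 to 45900000 reads. The 10 genes lie far above the 2.33 to 3.72 normalized counts that 3 reads correspond to, their lowest value being 30.7. Changes are log2((trametinib + 1)/(DMSO + 1)) within a line, which understates the change of low genes. Dusp6 and Spry4, feedback genes that ERK activity maintains, fell in 4 of 4 lines, with log2 fold changes of -2.51 ± 0.14 (SE, limma adjusted p = 0.00012) and -3.61 ± 0.24 (SE, limma adjusted p = 0.00021). In bulk RNA, a change in the number of cells of a kind and a change in RNA per cell cannot be told apart.

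All 10 genes passed the filter of a mean of 10 normalized counts. In the limma fit over 15888 genes, 5 of them were called higher with trametinib (Ddx58, Ifih1, Tlr3, Ticam1 and Ikbke), where 27.3% of all genes tested were called higher. Dhx58 alone was called lower, where 25.6% of all genes were. The other 4 (Mavs, Traf3, Tbk1 and Trim25) were not called. The trametinib libraries lay wholly above the DMSO libraries for Ddx58, Ifih1 and Ticam1 (15.1% of all genes) and wholly below them for Dhx58 (16.2% of all genes), and overlapped for the other 6. These counts include the values that led to the choice of the genes and say nothing beyond it. The median log2 fold change was 0.41 over the 10 genes and 0.07 over all genes tested.

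**Figure D1:**
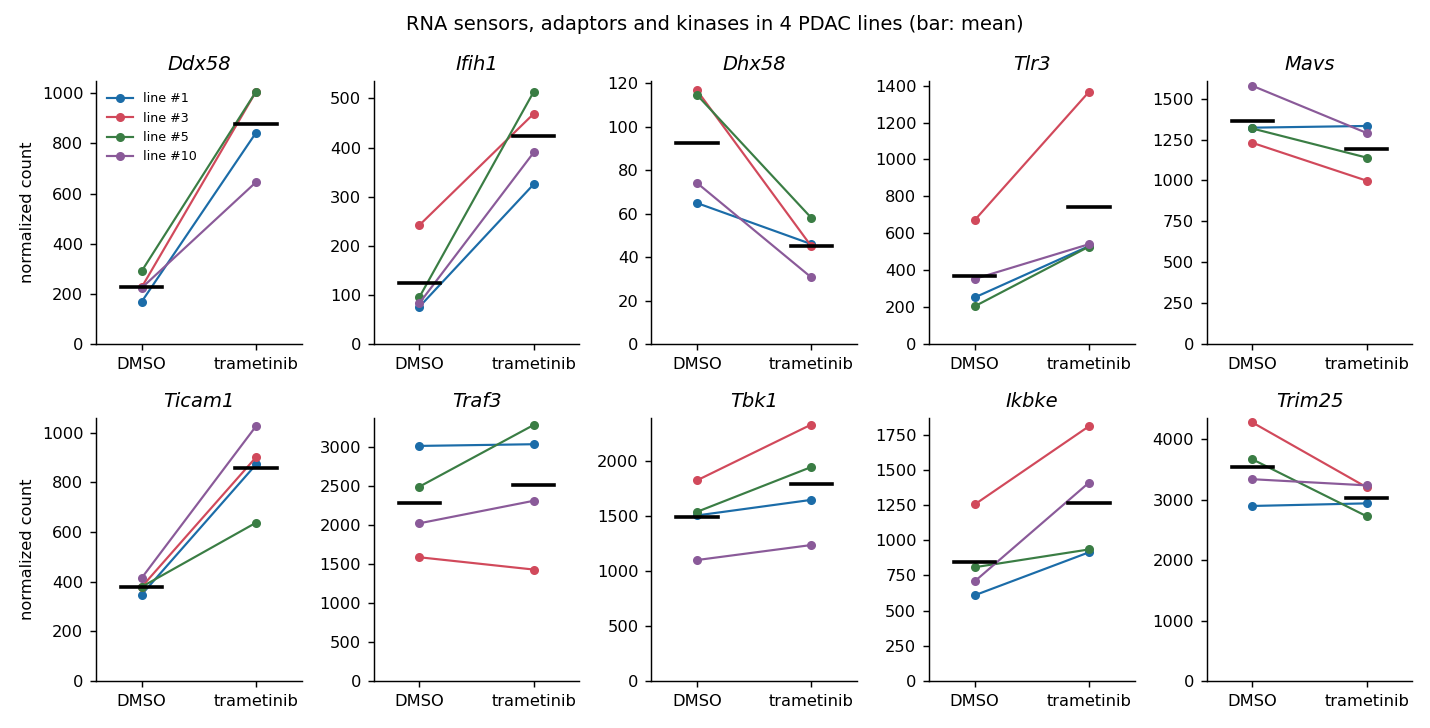
Normalized count (y axis, linear from 0) of each of the 10 genes in the DMSO and trametinib libraries. Each point is 1 library, lines join the libraries of a cell line, and black bars are the means of 4 lines. For Ddx58 every trametinib library lies above every DMSO library, and for Dhx58 every one lies below.

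Ddx58, the RIG-I gene, lies on chromosome 4 from 40203773 to 40239828 on the GRCm38 assembly. With DMSO its normalized count was 169, 227, 291 and 224 in lines #1, #3, #5 and #10, and with trametinib it was 842, 1006, 1006 and 645. Even the lowest trametinib library, that of line #10, stood above the highest DMSO library, that of line #5. The log2 fold change was 2.31, 2.15, 1.79 and 1.52 in the same order of lines, or 1.94 ± 0.35 on average (SD, n = 4). This corresponds to 3.84-fold, which makes it, with Ifih1, the receptor that was most increased. The DMSO libraries differed by at most 1.72 times, so the difference between treatments was larger than that between lines.

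Ifih1, the MDA5 gene, lies on chromosome 2 from 62595798 to 62646255. It stood at 76.0, 242, 95.6 and 83.3 with DMSO and at 325, 469, 514 and 390 with trametinib. Line #3 stood apart from the others with DMSO and was no longer the highest with trametinib. Accordingly, its log2 fold change was 0.95 in line #3 against 2.08, 2.41 and 2.21 in lines #1, #5 and #10, and 1.92 ± 0.66 on average (SD, n = 4). The spread between lines went from 3.19 times with DMSO to 1.58 times with trametinib. The difference was thus present in each line, with line #3 starting higher and gaining less.

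Dhx58, the LGP2 gene on chromosome 11 from 100694884 to 100704271, went the other way. It stood at 64.9, 117, 115 and 74.2 with DMSO and at 46.0, 45.0, 58.1 and 30.7 with trametinib. The gap between the groups was narrow, since the DMSO library of line #1 (64.9) was only just above the trametinib library of line #5 (58.1). The log2 fold change was -0.49, -1.36, -0.97 and -1.25, or -1.01 ± 0.39 on average (SD, n = 4), a level 2.02 times lower with trametinib. The smallest difference was that of line #1, which had the lowest Dhx58 with DMSO. An antisense gene, Dhx58os, overlaps exons of Dhx58 and was listed at 0 in all 8 libraries.

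The contrast between the receptors held within each line. The log2 fold change of Dhx58 lay below the mean of Ddx58 and Ifih1, the difference being -2.68, -2.90, -3.07 and -3.11 in lines #1, #3, #5 and #10. Divided by the length of the longest coding transcript (3874 bases for Ddx58, 5470 for Ifih1 and 2412 for Dhx58), the levels of the receptors can be set beside each other. With DMSO, Dhx58 made up 31.9%, 32.0%, 33.9% and 29.6% of the summed level per kilobase of the 3 receptors. That share was close to the same in each line, although the summed level ranged from 84.5 to 151 per kilobase. With trametinib the share of Dhx58 was 6.45%, 5.13%, 6.38% and 5.08%, and the summed level was 251 to 378 per kilobase. The share of Ddx58 was 49.9% ± 7.66 with DMSO and 70.0% ± 3.04 with trametinib, and that of Ifih1 was 18.2% ± 7.55 and 24.2% ± 3.45 (SD, n = 4). Line #3 was again the exception with DMSO, with 29.3% Ifih1 and 38.7% Ddx58, and had no such excess of Ifih1 with trametinib. Per length, there were 1.57 ± 0.28 Ddx58 transcripts for each Dhx58 transcript with DMSO and 12.3 ± 1.45 with trametinib (SD, n = 4). These shares use the values by which the 3 genes were chosen and carry no test.

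**Figure D2:**
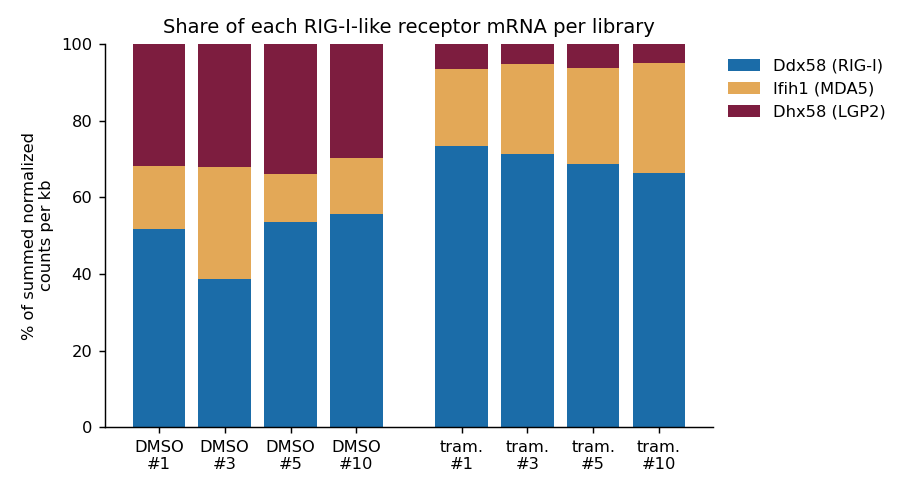
Share of Ddx58, Ifih1 and Dhx58 (y axis, percent of their summed normalized counts per kilobase) in each library, DMSO at left and trametinib (tram.) at right, 1 bar per line. Dhx58 takes 29.6% to 33.9% of the bar with DMSO and 5.08% to 6.45% with trametinib.

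Tlr3, the endosomal receptor of double-stranded RNA, lies on chromosome 8 from 45395665 to 45411080. It stood at 253, 671, 205 and 353 with DMSO and at 531, 1366, 528 and 541 with trametinib. Line #3 was the highest in both groups, and with trametinib the other 3 lines lay close together, below the DMSO value of line #3. The groups therefore overlapped, although Tlr3 was higher with trametinib in 4 of 4 lines, by 1.07, 1.02, 1.36 and 0.61 on the log2 scale. The mean log2 fold change was 1.02 ± 0.31 (SD, n = 4), or 2.02-fold. Tlr3 was not called when the fit left out the cell line. The gene model Gm45542, which overlaps an exon of Tlr3, did not exceed 0.947 normalized counts.

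Of the adaptors, the one used by TLR3 was higher with trametinib and the one used by RIG-I and MDA5 was not. Ticam1, encoding TRIF, lies on chromosome 17 from 56269319 to 56276786. It stood at 348, 378, 379 and 414 with DMSO and at 871, 901, 637 and 1026 with trametinib. The DMSO libraries were within 1.19 times of each other, the narrowest range of the 10 genes in that group, and all lay below the trametinib libraries. By line, its log2 fold change was 1.32, 1.25, 0.75 and 1.31, the lowest being line #5, with a mean of 1.16 ± 0.27 (SD, n = 4).

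Mavs, on chromosome 2 from 131234063 to 131248025, stood at 1322, 1230, 1317 and 1578 with DMSO and at 1333, 999, 1139 and 1290 with trametinib. It was lower in 3 of 4 lines and level in line #1, with log2 fold changes of 0.01, -0.30, -0.21 and -0.29. The mean was -0.20 ± 0.14 (SD, n = 4) and the groups overlapped. Per kilobase, Ticam1 stood at 0.269, 0.314, 0.294 and 0.268 of the level of Mavs with DMSO in lines #1, #3, #5 and #10, and at 0.668, 0.922, 0.571 and 0.813 with trametinib. The transcripts of the TRIF and MAVS adaptors were thus closer in level with trametinib in each line.

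Traf3, a ubiquitin ligase that joins both adaptors to the kinases, lies on chromosome 12 from 111166370 to 111267153. It stood at 3009, 1583, 2487 and 2018 with DMSO and at 3030, 1426, 3277 and 2306 with trametinib. Its direction was mixed, with a log2 fold change of -0.15 in line #3 and of 0.01, 0.40 and 0.19 in lines #1, #5 and #10. Differences between lines, up to 1.90 times with DMSO, exceeded the mean change of 0.11 ± 0.24 (SD, n = 4).

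The kinases differed in size of change. Ikbke, the inducible kinase, lies on chromosome 1 from 131254343 to 131279606. It stood at 609, 1255, 809 and 708 with DMSO and at 915, 1812, 935 and 1411 with trametinib. Line #3 was the highest in both groups, and its DMSO library lay above the trametinib libraries of lines #1 and #5. Ikbke was higher in each line, by 0.59, 0.53, 0.21 and 0.99 on the log2 scale, with a mean of 0.58 ± 0.32 (SD, n = 4). As for Tlr3, the call was lost when the fit left out the cell line. The gene model Gm28913 overlaps exons of Ikbke and did not exceed 0.964 normalized counts. Another overlapping gene model, Gm28914, has no values here, so its level is not known.

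Tbk1, the constitutive kinase on chromosome 10 from 121546455 to 121586787, stood at 1502, 1821, 1535 and 1097 with DMSO and at 1644, 2328, 1942 and 1234 with trametinib. It was slightly higher in each line, by 0.13, 0.35, 0.34 and 0.17 on the log2 scale (mean 0.25 ± 0.12, SD, n = 4), and was not called. Line #3 was the highest and line #10 the lowest in both groups. Per kilobase, Ikbke stood at 0.377, 0.641, 0.490 and 0.600 of the level of Tbk1 with DMSO and at 0.518, 0.724, 0.448 and 1.06 with trametinib. This ratio went up in every line but #5, where it went down.

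Trim25, on chromosome 11 from 88999376 to 89020293, was the most abundant of the 10 genes per length with DMSO. It stood at 2897, 4281, 3670 and 3340 with DMSO and at 2940, 3206, 2727 and 3238 with trametinib. Lines differed here, with log2 fold changes of -0.42 and -0.43 in lines #3 and #5 and 0.02 and -0.04 in lines #1 and #10, with a mean of -0.22 ± 0.24 (SD, n = 4). The lines thus fell into a pair with less Trim25 and a pair with values near 0, and the groups overlapped.

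**Figure D3:**
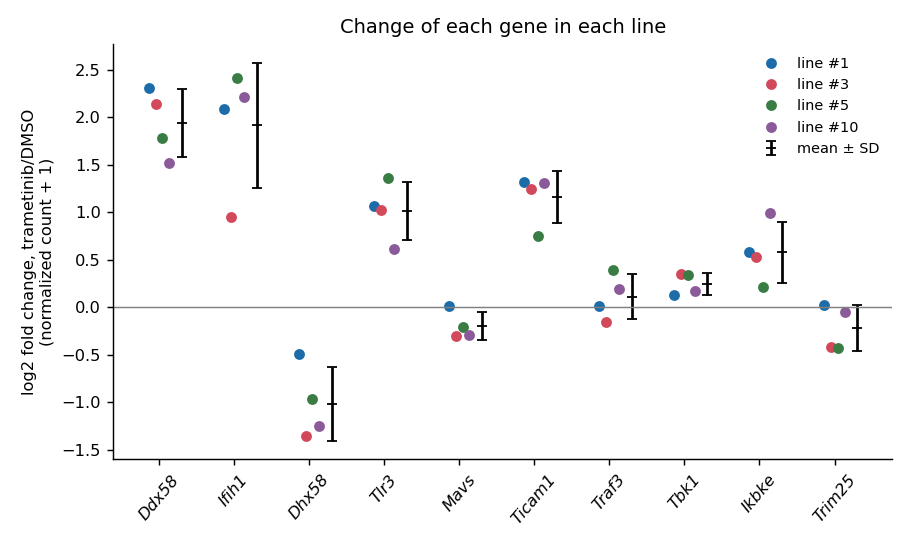
Log2 fold change with trametinib (y axis, on normalized count + 1) of each gene in each of 4 lines (colored points), with the mean and SD at the right of each set. Ddx58, Ifih1, Tlr3, Ticam1, Tbk1 and Ikbke are above 0 in each line, Dhx58 is below 0 in each line, and Mavs, Traf3 and Trim25 have points on both sides of 0.

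In level per kilobase, the adaptors, kinases and Trim25 stood above the receptors with DMSO. The mean levels ran from 635 (Trim25), 492 (Tbk1), 446 (Mavs), 322 (Traf3) and 260 (Ikbke) down to 127 (Ticam1), 84.1 (Tlr3), 58.8 (Ddx58), 38.4 (Dhx58) and 22.7 (Ifih1) normalized counts per kilobase. Of the 9 neighbouring pairs in this order 8 overlapped in their ranges over the lines, and only Ikbke and Ticam1 were apart. With trametinib the order was Tbk1 (591), Trim25 (542), Ikbke (390), Mavs (389), Traf3 (355), Ticam1 (287), Ddx58 (226), Tlr3 (168), Ifih1 (77.6) and Dhx58 (18.6). There 7 of 9 neighbouring pairs overlapped, with gaps between Tlr3 and Ifih1 and between Ifih1 and Dhx58. Ddx58 stood above Tlr3 in mean, and Dhx58 went from above Ifih1 to the last place. Levels per kilobase assume that the longest coding transcript is the one expressed.

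**Figure D4:**
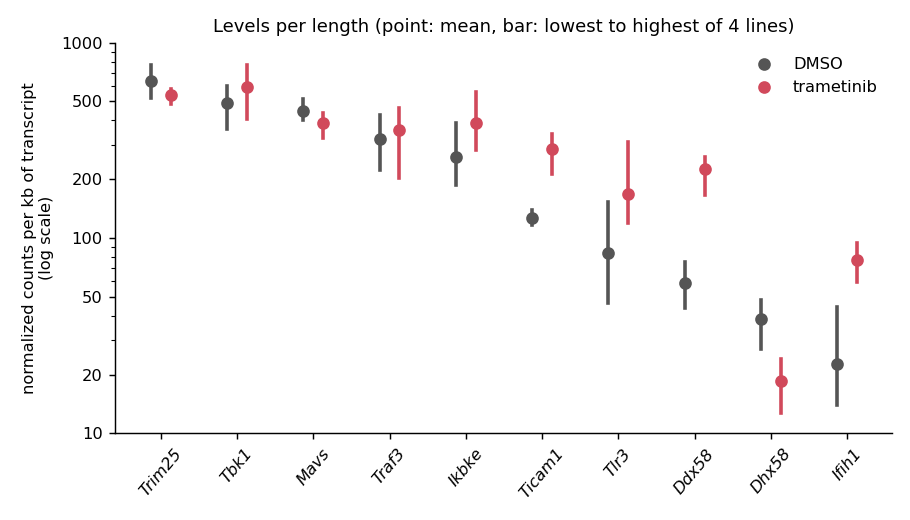
Normalized counts per kilobase of the longest coding transcript (y axis, log scale) for the 10 genes, ordered by their DMSO mean. Points are means of 4 lines and bars run from the lowest to the highest line, DMSO in grey and trametinib in red. The bars of Ddx58, Ticam1 and Ifih1 with trametinib lie above those with DMSO, and that of Dhx58 lies below.

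Likeness of pattern was measured by the Pearson correlation of log2(normalized count + 1) over the 8 libraries, as a description of libraries that share the same 2 treatments and 4 lines. The genes most like Ddx58 were Iqsec1 (r = 0.996), Fuca2 (0.991) and the gene model Gm37694 (0.990). Most like Ifih1 were Gm16008 (0.986), Akr1b10 (0.985) and Zfp369 (0.975). Most like Dhx58 were the gene model AC123832.2 (0.991), Slfn5 (0.988) and Ms4a8a (0.978), each with its highest levels in the DMSO libraries of lines #3 and #5. Among the 10 genes themselves, r was 0.89 between Ddx58 and Ifih1, 0.89 between Ddx58 and Ticam1, -0.67 between Ddx58 and Dhx58 and -0.88 between Dhx58 and Ticam1.

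The rest of the pathway was taken from 7 lists of 109 genes outside the 10, of which 97 were tested. Of these, 32 rose (33.0%, against 27.3% of all genes tested), 19 fell (19.6%, against 25.6%) and 46 did not pass in limma at an adjusted p of 0.05, with a median log2 fold change of 0.17 against 0.07 over all genes tested. These shares are near those of all genes, and no list was tested against other genes. Ddx60, Nlrc5, Irf5, Ifit1 and Isg15 had DMSO means under 10 and passed the filter only through their trametinib libraries, and Rnf125 only through its DMSO libraries, which favors a call in that direction. Counted over the 91 pathway genes with a mean of at least 10 in each treatment, a restriction chosen after seeing the data, 29 were higher (31.9%, against 26.6% of all such genes) and 19 lower (20.9%, against 26.5%).

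The other RNA sensors were mostly lower. Of 12 tested, 7 fell (Ddx1, Ddx3x, Ddx21, Dhx9, Dhx15, Dhx33 and Zc3hav1; 58.3%, against 25.6% of all genes), 1 rose and 4 did not pass, with a median of -0.39. The share rests in part on Ddx1, Ddx3x and Zc3hav1, which did not pass without the cell line in the fit. Ddx3x did not pass with quantile normalization either, and Zc3hav1 did not pass in 8 alternatives. Most of those that fell are helicases with housekeeping roles in RNA processing besides sensing. Ddx21, a nucleolar helicase, fell in 4 of 4 lines from 13688 ± 2548 to 5493 ± 2258 normalized counts (SD, n = 4), a log2 fold change of -1.40 ± 0.17 (SE, limma adjusted p = 0.00093). Dhx15, a splicing helicase, fell in 4 of 4 lines from 12260 ± 290 to 7138 ± 479 (log2 fold change -0.78 ± 0.08, SE, limma adjusted p = 0.00060). Eif2ak2, the RNA-activated kinase PKR, was higher in 4 of 4 lines and did not pass (log2 fold change 0.19, limma adjusted p = 0.12, 0.025 to 0.53 over the alternatives). It passed with libraries rescaled to equal totals and without line #3. Zbp1, Tlr7, Tlr8 and Tlr13 were below the filter, with no value over 27.2.

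Among the ubiquitin ligases and deubiquitinases that act on RIG-I, MAVS or TRAF3, 8 of 21 tested rose (38.1%, against 27.3% of all genes), 3 fell (14.3%, against 25.6%) and 10 did not pass, with a median of 0.19. Of those that rose, Rnf135, Smurf2, Cyld, Tnfaip3, Otud5 and Usp3 did not pass without the cell line in the fit, nor did Ube2n, which fell. Smurf2 did not pass in 6 alternatives, and Cyld and Usp3 did not pass in 3 each. Rnf122, a ligase that marks RIG-I for degradation, had the largest change of all lists, from 19.6 ± 9.60 to 378 ± 230 normalized counts (SD, n = 4). Its log2 fold change was 4.11 ± 0.20 (SE, limma adjusted p = 9.4e-05) and was between 3.89 and 4.34 in the 4 lines. Rnf135 (Riplet), a ligase that activates RIG-I, singled out after its values were seen, rose by 0.56 ± 0.14 (SE, limma adjusted p = 0.015, 0.0067 to 0.17 over the alternatives), in 4 of 4 lines, and did not pass without the cell line in the fit, with quantile normalization or without line #1 or line #5. Otub2, a deubiquitinase of TRAF3 and TRAF6, rose in 4 of 4 lines by 1.03 ± 0.22 (SE, limma adjusted p = 0.0080). The deubiquitinase Usp15 fell in 4 of 4 lines (log2 fold change -0.83 ± 0.14, SE, limma adjusted p = 0.0027). Stub1, a chaperone-linked ligase, fell in 4 of 4 lines (log2 fold change -0.55 ± 0.10, SE, limma adjusted p = 0.0035). In the fit with the cell line, activating and inhibiting enzymes were thus both among those that rose.

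Of the 23 partners and regulators of MAVS, 7 rose (30.4%, against 27.3% of all genes), 6 fell (26.1%, against 25.6%) and 10 did not pass, with a median of 0.10. The shares of this list are those of the background. Nlrx1, a mitochondrial inhibitor of MAVS, rose from 56.0 ± 7.71 to 132 ± 23.6 normalized counts (SD, n = 4), by 1.22 ± 0.19 on the log2 scale in 4 of 4 lines (SE, limma adjusted p = 0.0021). Traf5 rose in 4 of 4 lines by 1.41 ± 0.28 (SE, limma adjusted p = 0.0060), most in line #5 with 2.30. Without the cell line in the fit its limma adjusted p was 0.057, the highest of its alternatives, which went down to 0.0044. Tomm70a, the mitochondrial import receptor that links MAVS to the kinases, fell in 4 of 4 lines (log2 fold change -1.12 ± 0.13, SE, limma adjusted p = 0.00078). Ywhae, the 14-3-3ε protein that carries RIG-I to mitochondria, fell in 4 of 4 lines (log2 fold change -0.79 ± 0.12, SE, limma adjusted p = 0.0023).

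Around TLR3 and TRIF, 6 of 14 tested genes rose (42.9%, against 27.3% of all genes), 2 fell (14.3%, against 25.6%) and 6 did not pass, with a median of 0.34. Of those that rose, Unc93b1, Tlr4, Ctsb and Ctsh did not pass without the cell line in the fit. Ctsb did not pass in 6 alternatives. Wdfy1, an endosomal protein that recruits TRIF to TLR3, rose from 474 ± 172 to 1491 ± 317 normalized counts (SD, n = 4), by 1.70 ± 0.22 on the log2 scale in 4 of 4 lines (SE, limma adjusted p = 0.0012). Unc93b1, which escorts TLR3 to endosomes, rose in 4 of 4 lines by 1.28 ± 0.27 (SE, limma adjusted p = 0.0073). It differed widely between lines, from 22.6 to 263 with DMSO, and its limma adjusted p was 0.23 without the cell line in the fit and 0.0048 at the lowest. Ripk3, the necroptosis kinase that TRIF can engage, fell in 4 of 4 lines (log2 fold change -0.52 ± 0.13, SE, limma adjusted p = 0.014, 0.012 to 0.68 over the alternatives). The chaperone Hsp90b1 fell in 4 of 4 lines (log2 fold change -0.29 ± 0.10, SE, limma adjusted p = 0.043, 0.017 to 0.92 over the alternatives). Ripk3 did not pass without the cell line in the fit or without line #5, and Hsp90b1 did not pass in 8 of its alternatives.

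Of 16 kinases and transcription factors below the adaptors, 4 with a mean of at least 10 in each treatment rose (Ikbkg, Nfkb1, Rela and Jun), none fell and 11 did not pass. The 4 are 26.7% of the 15 genes with such means, against 26.6% of all such genes, so the share that rose is that of the background. The share that fell was 0%, against 26.5% of all such genes, and the list was not tested against other genes. Rela did not pass without the cell line in the fit, nor Ikbkg without line #1 or without line #5. Irf3, the factor that TBK1 phosphorylates, stood at 1191 ± 171 with DMSO and 1373 ± 142 with trametinib (SD, n = 4; log2 fold change 0.21 ± 0.10, SE, limma adjusted p = 0.11, 0.027 to 0.36 over the alternatives). Irf7 was low, at 8.21, 93.1, 24.4 and 8.18 with DMSO and 31.2, 142, 23.7 and 49.9 with trametinib. It was higher in 3 of 4 lines and did not pass (log2 fold change 1.21 ± 0.45, SE, limma adjusted p = 0.059, 0.032 to 0.31 over the alternatives). Both passed with libraries rescaled to equal totals, and Irf7 also without line #5. The remaining gene, Irf5, is given as values without a test because it passed the filter only through its trametinib libraries. It stood at 5.11, 0.855, 4.09 and 7.11 with DMSO and at 19.3, 5.41, 46.2 and 37.8 with trametinib, higher in 4 of 4 lines. Jun, an AP-1 subunit, rose in 4 of 4 lines by 1.76 ± 0.32 (SE, limma adjusted p = 0.0038), with 3.09 in line #3 and 1.04 to 1.54 in the other lines.

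At the end of the route, Ifnb1, the interferon-β gene, was listed at 0 in all 8 libraries. Of the early IRF3 targets in the table, Cxcl10, Ifit2 and Ifit3 rose, Cxcl10 in 3 of 4 lines and the others in 4 of 4. Cxcl10 did not pass with quantile normalization or without any 1 of lines #1, #5 and #10, and neither Cxcl10 nor Ifit2 passed without the cell line in the fit. Ifit1 and Isg15 entered the fit only through their trametinib libraries, so only their values are shown. No count or median is given for this list on its own. Ifit3 rose from 19.2 ± 18.1 to 104 ± 54.6 normalized counts (SD, n = 4), by 2.64 ± 0.33 on the log2 scale (SE, limma adjusted p = 0.0011). Ifit1 stood at 3.49 ± 1.04 with DMSO and 21.3 ± 6.06 with trametinib (SD, n = 4). Isg15, with a DMSO mean of 5.03, was likewise higher in 4 of 4 lines. The DMSO values of Ifit1, 2.33 to 4.79, lie near what 3 reads correspond to. Ccl5 and Rsad2 were below the filter, with no value over 5.73.

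The cytosolic DNA-sensing arm, which joins the same kinases, was compared as the nearest related route. Of 6 genes tested 1 fell (16.7%, against 25.6% of all genes), none rose (27.3% of all genes) and 5 did not pass, with a median of 0.04. Mb21d1, encoding the DNA sensor cGAS, fell in 4 of 4 lines from 211 ± 17.3 to 106 ± 42.5 normalized counts (SD, n = 4), a log2 fold change of -1.09 ± 0.24 (SE, limma adjusted p = 0.0086). Tmem173, encoding STING, stood at 244, 2238, 320 and 142 with DMSO and at 144, 2044, 440 and 153 with trametinib, far above the other lines in line #3. It was higher in 2 lines and lower in 2 (log2 fold change -0.08 ± 0.20, SE, limma adjusted p = 0.76).

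**Figure D5:**
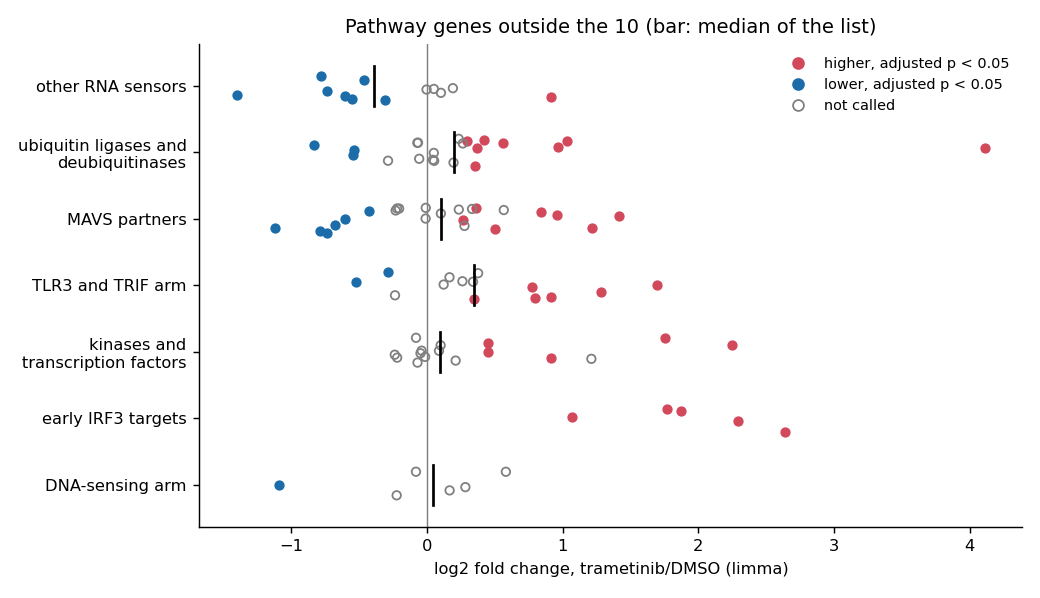
Log2 fold change with trametinib (x axis, limma) of the 97 tested pathway genes outside the 10, by list (y axis; vertical scatter within a list has no meaning). Red and blue points passed as higher and lower, open points did not pass, and black bars are list medians, for example -0.39 for other RNA sensors and 0.10 for MAVS partners, with none drawn for early IRF3 targets. Ddx60, Nlrc5, Irf5, Ifit1 and Isg15 are shown although they passed the filter only through the trametinib libraries.

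Markers of other cells were read beside these results. Of 8 ductal epithelial markers, Krt7, Krt8, Krt18, Krt19 and Cdh1 were abundant in each library, and Epcam was listed at 0 in the 3 lines other than #3. Their summed level was 221230 to 348820 normalized counts with DMSO and 113160 to 222090 with trametinib. Of the 7 tested, 5 passed as lower (Krt7, Krt8, Krt18, Krt19 and Sox9, where 25.6% of all genes did) and Cldn4 rose. None of the 5 passed without the cell line in the fit, and Krt8 and Krt19 did not pass with equal totals or quantile normalization. Krt7, Krt8 and Krt19 also did not pass without line #5, nor Krt19 without line #3. T and B cell markers (7 genes) summed to 4.86 to 25.1 with DMSO and 5.21 to 29.7 with trametinib. Of 8 macrophage and dendritic cell markers in the table, Csf1r rose, from 18.9 ± 19.8 to 139 ± 141 normalized counts (SD, n = 4). Ptprc, Itgam and Cd68 did not pass. The others were below the filter, and Lyz2 did not exceed 1.91. The sum of the 8 was 157 to 235 with DMSO and 246 to 532 with trametinib. Of 10 fibroblast markers, Col1a1 rose, from 74.1 ± 41.9 to 876 ± 354 normalized counts (SD, n = 4). Col3a1, Dcn, Pdgfra and Thy1 did not pass. Col1a2, Pdgfrb, Fap, Postn and Lum were below the filter, and Lum was listed at 0 in all libraries. The sum of the 10, Col1a1 included, was 96.9 to 369 with DMSO and 440 to 1260 with trametinib. Of 5 endothelial markers, Tek and Vwf passed as higher, Pecam1 and Kdr did not pass, and Cdh5 was below the filter. The sum was 38.1 to 82.1 with DMSO and 75.5 to 1779 with trametinib. In line #3 with trametinib Tek stood at 805 and Vwf at 948, and Pecam1 stood at 12.3, Cdh5 at 5.97 and Kdr at 7.64. Tek had a DMSO mean of 8.21 and passed the filter only through its trametinib libraries. Vwf changed most in line #3 (log2 fold change 5.06, against 0.61 to 2.12 in the other lines). It did not pass in 8 alternatives, leaving out line #1 or line #3 among them, and Csf1r did not pass without the cell line. The highest endothelial sum was that of line #3 with trametinib, the library with the highest Tlr3 and Ikbke. With DMSO, line #3 was also the highest in Tlr3 (671) and Ikbke (1255), and the highest endothelial sum was that of line #1. The part of these shifts in the values of the 10 genes was not tested.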

How the data were processed

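RNA of 4 PDAC lines, each with DMSO and with trametinib, was prepared as stranded mRNA libraries. The submitters' processing notes name CASAVA 2.17, Salmon 0.12, DESeq2 1.18 and mm10, and the authors deposited normalized counts, a signal scaled between libraries. Whole reads could not be recovered from it, since in each library part of the values were not multiples of 1 step, so no count test was run. Depth, estimated from that step, was about 29300000 to 45900000 reads per library. Of the low values, 40.5% to 62.4% per library were whole multiples of the step. The depth and the level that 3 reads correspond to are therefore approximate. Values were transformed as log2(value + 1) and fitted with limma 3.58.1 in R 4.3.3 (eBayes with trend, cell line as block, Benjamini-Hochberg adjustment, threshold 0.05) over 15888 genes with a mean of at least 10. The fit was also run on simulated data, whose outcome is not given here and on which no result rests. The pairing comes from the cell line numbers in the labels, and libraries of a line deviated together (correlation 0.63 to 0.72 across genes). Tables were handled in Python 3.11.15 with pandas 2.3.3, and plots drawn with matplotlib 3.10.9. Gene positions and lengths are those of GENCODE M21 on GRCm38.

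The 10 genes, the pathway and marker lists and the motifs were chosen with earlier results of these data known. Pathway genes were named where they passed with 1 direction in 4 of 4 lines and had the 2 largest rises or 2 largest falls of their list, and Irf3, Irf7, Ifnb1, Mb21d1, Tmem173, Dusp6 and Spry4 in any case. Genes named in other ways were chosen after their values were seen. Alternatives were pseudocounts of 0.1 and 5, rescaling to equal totals, quantile normalization, median centring, leaving the block out, no filter or one at a mean of 50, other eBayes settings, and leaving out each line. A count over genes with a mean of at least 10 in each treatment was added after seeing the data. Nothing says whether a library pools cultures. P-values of the fit with the cell line rest on how the change within a line varies between lines. Those of the fit without it also include the spread of levels between lines. An allele of the mice and a pathway gene that passed are not reported here.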

Additional observations from a re-analysis of the deposited data

Results flagged for a closer look

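In groups of 4 libraries or 4 lines, 102 sets of values were examined for 1 value far from the other 3, and 6 were found, where chance gives about 5.1 (1 in 20). Line #3 held 4 of them. Ifih1 with DMSO was highest there at 242 normalized counts, Tlr3 with trametinib at 1366, and Tmem173 with DMSO at 2238 and with trametinib at 2044. The log2 fold change of Ticam1 was lowest in line #5, at 0.75. Hsp90b1 with DMSO was lowest in line #10, at 21031 normalized counts.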

How the results depend on the processing

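The direction of each of the 10 genes' mean change held under all 14 alternatives, leaving out each line included. Without the replicate block, 2205 genes were higher and 2347 lower instead of 4341 and 4075. Of the 10 genes 3 were then called higher, Tlr3 and Ikbke being lost, and of the pathway genes 15 were higher and 12 lower. With median centring, 2 of the 10 were called lower, Mavs being added. Tbk1 was called higher with equal totals, with quantile normalization and with the filter at a mean of 50. The log2 fold change of Dhx58 was -1.47 with quantile normalization, and that of Tbk1 was 0.38 with equal totals. The median over all genes was 0.07, and 0.20 with equal totals and -0.03 with quantile normalization, so small changes such as those of Mavs, Traf3, Tbk1 and Trim25 are on the order of this shift. For the 23 named pathway genes tested, 303 comparisons with an alternative kept their call, 13 lost it and 3 gained it. The 23 include Irf5 and Ifit1, which passed the filter only through their trametinib libraries. The kept calls of Irf5 and Ifit1 say nothing about stability. Irf5, Irf7 and Ifit1 are below the filter at a mean of 50 and have no value there. The cause of these differences was not tested. With 4 lines and 1 library per line and treatment, variation between cultures of a line was not measured, and each line had its own drug concentration.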
